A study of Oncorhynchus mykiss with 6 samples.

Results

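The C2H2 zinc finger transcription factors of rainbow trout (Oncorhynchus mykiss) liver were taken as the rows of the authors' deposited table whose transcription factor family is given as zf-C2H2. There were 188 such rows among 5045 listed rows. Liver RNA was sequenced in 3 control libraries (18 °C) and in 3 libraries of a heat stress group that spent 8 h at 24 °C. The labels speak of liver placed or treated at these temperatures, which leaves open whether whole fish or liver tissue was heated. They give no duration for the control group. The labels give no strain, age or sex, and they do not say whether the libraries came from separate fish, so the p-values measure the spread between libraries, which may be technical. Ribosome profiling, which the series title also names, was not analysed here.

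The table holds only rows that its authors had called changed. In the authors' deposited table the largest adjusted p is 0.049875 and the smallest absolute log2 fold change is 1.00019. Nothing can therefore be said here about C2H2 genes outside the list, and the fact that a listed row passes a test carries no information. What the list can show is the direction of each member, its level and the size of its change. The table gives a symbol for 46 members (3 of them clone names) and none for 142. Its text fields are cut at 8 characters, so descriptions are incomplete.

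Members were separated into 30 named regulators (klf, egr, prdm, sall and similar symbols), 13 rows with a zinc finger number or similar symbol (znf, zfp or zfpm), and 145 rows with a clone symbol or no symbol. The last class was set apart from the zinc finger symbols after its values had been seen. The named regulators hold every remaining symbol, so they include Fbxo41, dnajc21, CD5L and PGBD4, whose names are of other protein types. Trout carry many duplicated genes, and several members share a symbol, so copies are numbered here by their order in the table. How reads that fit several near-identical copies were counted is not given in the sources used here. The split of reads between copies, and among the unnamed zinc finger rows, is therefore uncertain. No sequences are shown, since the table gives no complete identifier to match them by.

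The C2H2 zinc finger is a short fold in which a pair of cysteines and a pair of histidines hold a zinc ion, and arrays of such fingers read DNA base by base. Krüppel-like factors (KLF) bind GC-rich promoter elements and in mammalian liver take part in the response to hormones and fasting. Early growth response factors (EGR) are made within minutes of a stimulus, and NAB proteins then restrain them. Most other vertebrate C2H2 proteins belong to large, fast-evolving families with long finger arrays, and few of those have an assigned function. Roles given below are those known from mammals unless another species is named.

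C2H2 rows were mostly higher in heat and mostly scarce in control liver. Of the 188 members, 169 were higher and 19 lower in heat, which is 89.9% higher, whereas in the table as a whole 57.1% were higher and in the other 4857 rows 55.8%. All 3 heat libraries lay above all 3 control libraries in 165 members and below them in 19, against 56.8% and 42.6% of all listed rows. The groups overlapped in 4 members, all without a gene name, and 99.4% of listed rows had groups that did not overlap.

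Differences were tested with limma-voom over 4766 listed rows that had at least 10 counts in 3 libraries, with Benjamini-Hochberg adjustment. Among the 173 members with enough counts, 155 rose and 18 fell, where 58.1% of all tested rows rose and 41.9% fell. A scarce row could meet that count filter through the heat group alone, and such a member could enter only as a rise. Asking for 10 counts in all 6 libraries left 101 members. Of these 70 were unnamed rows, and 69 of the 70 rose, where 58.0% of all 3584 rows tested in that way rose. Every tested row passed an adjusted p of 0.05 (100%), the rows having been selected as changed. The 15 members left untested, all without a gene name, comprised 14 that were higher in heat and 1 that was lower. These counts depend on how libraries are scaled. The scaling used here takes the ratio of whole-library totals, recovered from counts and FPKM. With median-of-ratios scaling computed on the listed rows alone, 62 of the 173 members rose and 18 fell and no member turned its direction. The share that rose was then near that of all tested rows, 1678 of 4766 (35.2%). The share that fell was smaller than that of all tested rows, 1996 of 4766. That scaling moved the median log2 fold change of all tested rows by -0.91. A shift of that size could hardly turn rises that the authors had selected at 1.00019 or more, and it enlarges falls. The kept direction therefore carries little information.

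The median control level of the 188 members was 0.341 FPKM, and in heat it was 0.883 FPKM. Over all listed rows the medians were 1.14 and 1.50 FPKM. In control liver 159 members (84.6%) averaged under 1 FPKM, compared with 46.3% of all listed rows. In heat 82 members averaged at least 1 FPKM, of which 57 had been below that level in control. The size of the change was ordinary for the table. The median absolute log2 fold change was 1.58 in members and 1.55 over all tested rows, and 171 tested members changed at least 2-fold, as did 98.8% of all tested rows. In 49 tested members (28.3%) the change was at least 4-fold, a size reached by 28.1% of all tested rows. Members that rose did so by a median of 3.04-fold, and members that fell did so by a median of 2.53-fold.

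**Figure D1:**
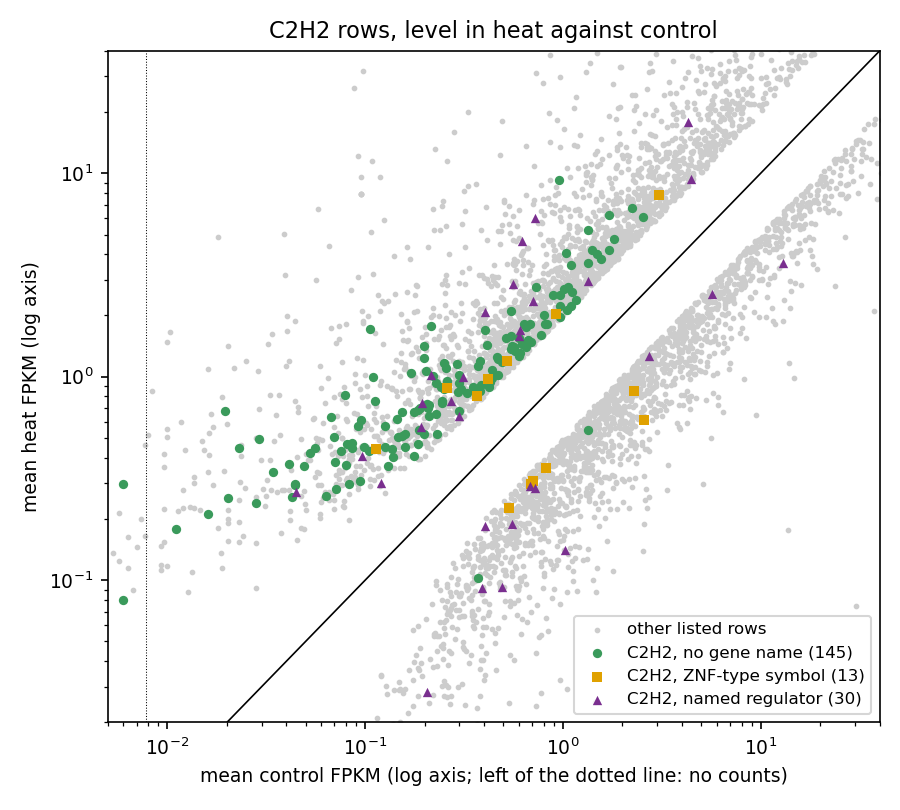
Mean FPKM in heat (vertical, log axis) against mean FPKM in control (horizontal, log axis), 3 libraries each, for the 188 C2H2 rows by naming class and for other listed rows in grey; rows beyond the axis limits are not drawn, and the empty band along the diagonal is the authors' 2-fold selection. Unnamed C2H2 rows (145) lie almost all above the diagonal and mostly under 1 FPKM in control, while rows with a symbol lie on both sides.

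The direction differed by naming class. Of the 145 rows without a gene name, 143 were higher and 2 lower in heat. Of the 43 members with a gene symbol, 26 were higher and 17 lower, which is 60.5% higher and near the 57.1% of the whole table. Named regulators gave 19 higher and 11 lower, and rows with a zinc finger symbol gave 7 and 6. The 19 include Fbxo41, dnajc21, CD5L and PGBD4, whose names are of other protein types. All 43 were tested, and each passed in the direction stated. With median-of-ratios scaling 10 of 30 named regulators rose and 11 fell, and 2 of 13 rows with a zinc finger symbol rose and 6 fell. Of 130 tested unnamed rows 50 rose and 1 fell with that scaling. Of all 4766 tested rows 35.2% then rose and 1996 fell. The share of unnamed rows that passed as rises was thus near that of all tested rows, and the share that fell was smaller. The median absolute log2 fold change was 1.69 for named regulators, 1.28 for zinc finger symbols and 1.60 for unnamed rows.

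**Figure D2:**
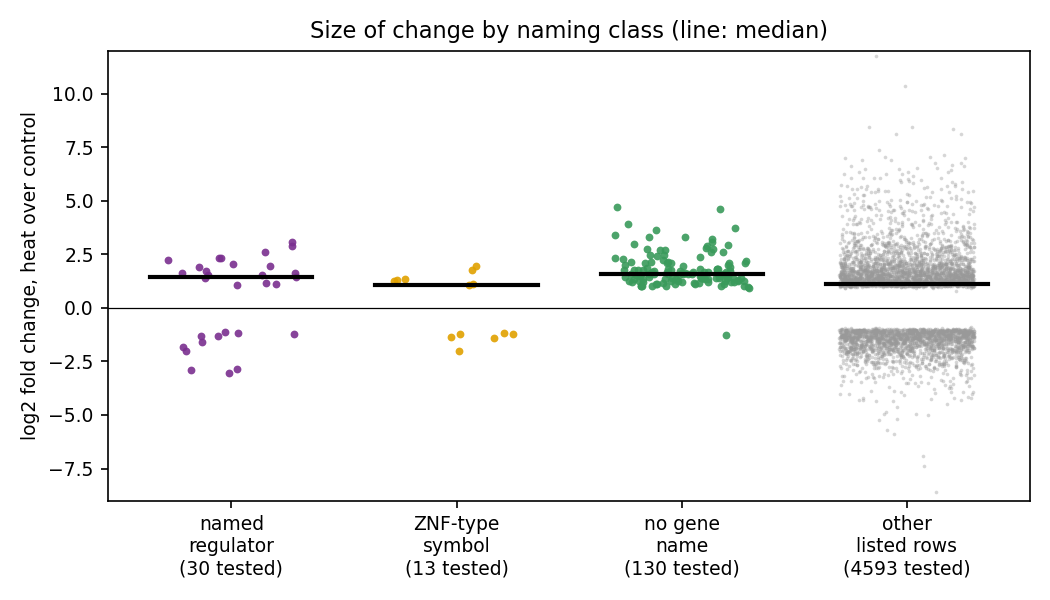
Log2 fold change of heat over control from limma-voom for each tested row, by naming class, with the median of each class as a black line; points are spread sideways only for legibility. Of 130 tested unnamed rows 129 lie above 0, while the 30 named regulators split into 19 above and 11 below.

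The unnamed rows went from very low to low levels. Their median FPKM was 0.238, 0.268 and 0.231 in the 3 control libraries and 0.891, 0.911 and 0.878 in the 3 heat libraries. The sum of their FPKM was 64.9, 64.6 and 64.9 in control and 187.2, 200.05 and 200.1 in heat. Every heat library was thus above every control library in both measures, and libraries of a group lay close together. That separation is near certain for rows selected as changed and almost all higher in heat. The medians of all listed rows also separated, at 1.14 to 1.15 FPKM in control libraries and 1.46 to 1.49 FPKM in heat libraries. In bulk liver, a change in the make-up of the cells and a change in RNA per cell cannot be told apart. Of the 145 rows, 126 averaged under 1 FPKM in control, 65 reached at least 1 FPKM in heat, and 47 of these had been below it.

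At each level more of the unnamed C2H2 rows than of the other rows were higher in heat. Among rows with a mean under 0.5 FPKM over the 6 libraries, 61 of 62 unnamed C2H2 rows were higher in heat, and 437 of 1002 rows outside the C2H2 family were (43.6%). Between 0.5 and 1 FPKM the numbers were 42 of 43 and 444 of 839 (52.9%). Between 1 and 2 FPKM all 27 unnamed C2H2 rows were higher, and 520 of 918 other rows were (56.6%). Between 2 and 5 FPKM all 12 were higher, where 590 of 949 other rows were (62.2%). C2H2 rows with a symbol were closer to the other rows at the lowest level, with 7 of 15 higher in heat under 0.5 FPKM. Of the 477 rows without a symbol outside the family 291 were higher in heat (61.0%), against 55.8% of all rows outside the family.

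**Figure D3:**
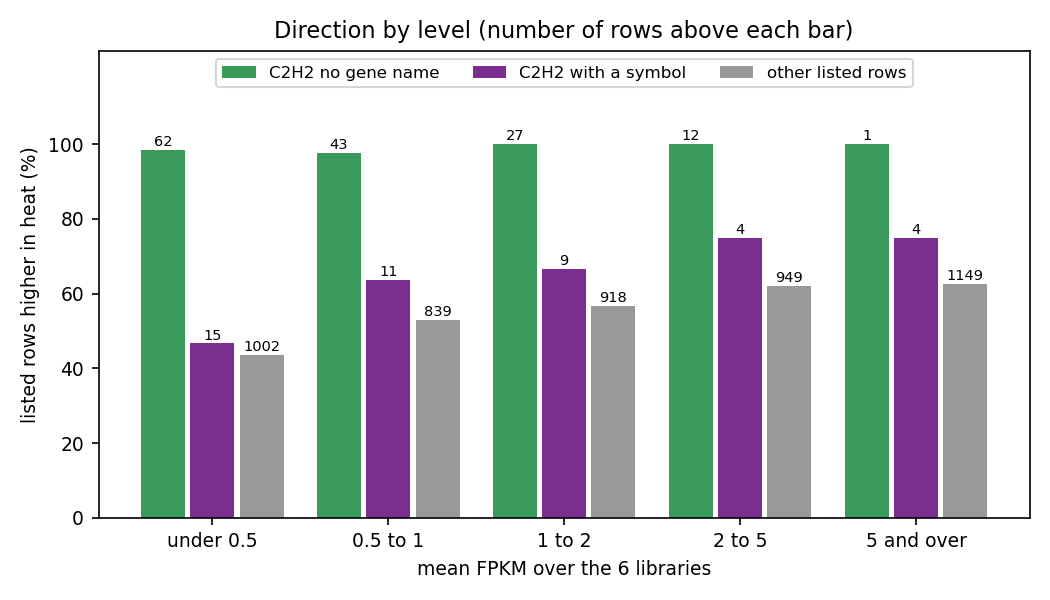
Percentage of listed rows that were higher in heat (vertical axis, from 0) in bins of mean FPKM over the 6 libraries, for unnamed C2H2 rows, C2H2 rows with a symbol and all other listed rows, with the number of rows above each bar. The unnamed rows reach 97.7% or more in every bin, while the other rows lie between 43.6% and 62.7%.

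The truncated descriptions divide the unnamed rows further. In 111 rows the text begins "zinc fin", and 109 of these were higher in heat. In 18 it begins "gastrula" and in 7 "oocyte z", and all of both groups were higher. The 9 others have various texts and were also all higher. The 7 "oocyte z" rows, all tested, had the largest median change among these groups, with a median log2 fold change of 2.33, where the "zinc fin" rows had 1.59 and the "gastrula" rows 1.57. The KEGG ortholog group K09228, which KEGG names for KRAB zinc finger proteins, was attached to 96 of the 145 rows, of which 95 were higher. Of the 49 rows without that annotation 48 were higher. The same annotation was on the named members zbtb8a.1, which was higher, and SALL3, which was lower. Outside the C2H2 family it was on 7 rows, 4 higher and 3 lower. Whether any of these trout rows encodes a KRAB domain was not tested.

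The most abundant unnamed row in heat was one whose description begins "gastrula". It stood at 1.25, 0.801 and 0.827 FPKM in control and at 8.98, 8.93 and 9.84 FPKM in heat. The groups were far apart, and the row rose 9.76-fold (log2 fold change 3.29 ± 0.17 SE, adjusted p = 1.03e-23). A second "gastrula" row went from 0.106 ± 0.118 to 1.71 ± 0.0718 FPKM (here and below ± on FPKM is the SD, n = 3), which limma-voom put at 24.3-fold. Its control libraries held 11 counts in all, and without control replicate 2, which had none, the value was 11.1-fold. Without control replicate 1 it was 45.4-fold.

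The other unnamed rows chosen for their large rise were one described as "uncharac", at 0.216 ± 0.0430 FPKM in control and 1.78 ± 0.186 in heat, and one "oocyte z" row, at 0.197 ± 0.0283 and 1.41 ± 0.188 FPKM. These rose 7.94-fold and 6.96-fold. One "zinc fin" row rose 6.08-fold, from 0.170 ± 0.0693 to 1.05 ± 0.199 FPKM. In heat these 5 rows stood between 1.05 and 9.25 FPKM, below the 17.9 FPKM of klf9.

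The only tested unnamed row that fell stood at 1.07, 1.57 and 1.38 FPKM in control and 0.470, 0.641 and 0.526 FPKM in heat, a 2.42-fold fall (adjusted p = 3.71e-06). The other unnamed row that was lower had 46 counts in control and 16 in heat and was not tested. At the bottom of the range, 2 unnamed rows had no counts in any control library. In heat they had 32 and 18 counts, at least 8.34-fold and 4.69-fold higher than a floor of 3 counts over the control group, and neither was tested. Depth limits such rows, and a count of 0 does not show that a gene is silent.

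Among the named regulators, KLF genes were the most abundant, and they went both ways. The table listed 10 KLF rows, of which 4 rose and 6 fell, where 58.1% of all tested rows rose and 41.9% fell. Their median control level was 2.03 FPKM, and 4 of the 5 members with the highest control level were KLF genes, in the order Klf10, klf15, KLF3 and klf9, with the zinc finger gene znf277 the fifth. The control libraries of klf15 (5.38 to 6.17 FPKM) lay above those of KLF3 (3.76 to 5.36 FPKM) only narrowly, and those of KLF3 and klf9 overlapped. In heat klf9 held the first place.

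klf9 encodes a repressor that is induced by glucocorticoid and thyroid hormones, in fish as in mammals. Its level was 4.29, 4.59 and 3.93 FPKM in control and 17.7, 18.7 and 17.3 FPKM in heat. It rose 4.18-fold (log2 fold change 2.06 ± 0.12 SE, adjusted p = 6.89e-22). All heat libraries lay above all control libraries, as in 56.8% of all listed rows.

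Klf10, a TGF-beta-inducible repressor, had the highest control level of any C2H2 member. Its first copy stood at 13.1, 13.7 and 12.2 FPKM in control and at 3.56, 4.10 and 3.24 FPKM in heat, and it fell 3.57-fold (log2 fold change -1.84 ± 0.12 SE, adjusted p = 4.50e-19). The second copy, KLF10, was at 1.27, 0.885 and 0.927 FPKM in control and at 0.102, 0.184 and 0.135 FPKM in heat. That copy fell 7.32-fold (adjusted p = 1.96e-06), although its heat value rests on 17 counts over 3 libraries. Both copies fell, although the first was far more abundant.

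klf15 promotes gluconeogenesis and amino acid breakdown in fasting liver. It went from 6.17, 5.38 and 5.50 FPKM in control to 2.14, 2.64 and 2.88 FPKM in heat, a 2.27-fold fall (adjusted p = 1.55e-10). klf11a, a relative of KLF10 that recruits the Sin3 corepressor, fell 2.18-fold, from 2.71 ± 0.362 to 1.26 ± 0.196 FPKM (adjusted p = 2.87e-06).

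KLF3, a repressor that works through the corepressor CtBP, was higher in heat in both copies. The first copy was at 3.76, 5.36 and 4.20 FPKM in control and 9.37, 9.55 and 9.11 FPKM in heat, a 2.15-fold rise (adjusted p = 3.38e-12). The second, less abundant copy rose 2.85-fold, from 0.608 ± 0.176 to 1.69 ± 0.166 FPKM (adjusted p = 5.32e-07). klf6a, a factor known from wound and injury responses, rose 2.22-fold, from 1.34 ± 0.295 to 2.96 ± 0.142 FPKM. The rises of the first KLF3 copy and of klf6a no longer passed with median-of-ratios scaling (adjusted p = 0.136 and 0.169). No C2H2 symbol with several copies had copies that went opposite ways.

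The remaining KLF rows were under 1 FPKM and are named after their values were seen. KLF2, which in mammals marks endothelium under flow, went from 0.390 to 0.0913 FPKM on average, with 11 counts over the heat libraries. Klf8 went from 0.726 to 0.284 FPKM. Both fell, by 4.05-fold and 2.51-fold.

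**Figure D4:**
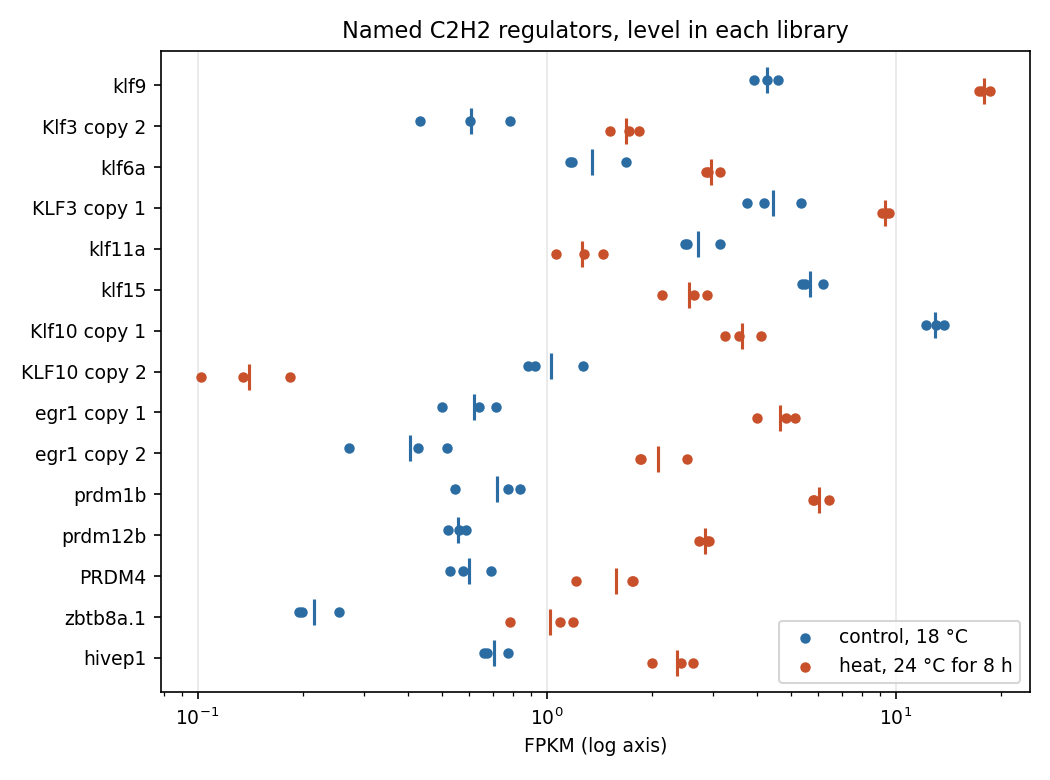
FPKM (log axis) of the 15 named C2H2 regulators that reached a mean of 1 FPKM in either group, 1 point per library (3 control in blue, 3 heat in orange) with a vertical bar at each group mean. klf9, both KLF3 copies, klf6a, both egr1 copies, the PRDM genes, zbtb8a.1 and hivep1 lie higher in heat, and klf11a, klf15 and both KLF10 copies lie lower. Groups overlap in none of them, and 99.4% of all listed rows likewise had groups that did not overlap.

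Both egr1 copies rose together. The first was at 0.503, 0.641 and 0.715 FPKM in control and 5.16, 4.01 and 4.83 FPKM in heat, and it rose 7.50-fold (log2 fold change 2.91 ± 0.25 SE, adjusted p = 3.44e-15). The second was at 0.520, 0.271 and 0.427 FPKM in control and 1.85, 2.52 and 1.87 FPKM in heat, and it rose 5.08-fold (adjusted p = 1.06e-09). EGR1 is the classical immediate-early zinc finger factor. In both copies every heat library exceeded every control library, as in 56.8% of all listed rows.

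Genes usually induced alongside EGR1 were taken as a list of 19 immediate-early and AP-1 names. The table held 20 rows under 12 symbols, with ier2b and mycb counted as copies of ier2 and myc. Of these rows 19 rose and 1 fell, where 58.1% of all tested rows rose. With median-of-ratios scaling 17 rose and 1 fell, where 35.2% of all tested rows rose. fos, an AP-1 subunit, went from 0.362 ± 0.0838 to 8.86 ± 1.39 FPKM, a 23.8-fold rise. A JUN row, for the partner subunit, rose 6.88-fold to 33.7 ± 1.72 FPKM. Another jun row, more abundant in control at 13.8 ± 0.466 FPKM, rose 2.35-fold to 32.5 ± 0.336 FPKM. The 4 junb rows rose between 6.35-fold and 13.1-fold, and the stress-induced factor gene atf3 rose 8.57-fold in its more abundant row. The exception was myc, a growth regulator, which fell 3.31-fold from 0.611 ± 0.151 FPKM, while mycb rose 2.90-fold. The summed level of the 20 rows ran from 33.7 to 34.5 FPKM in control libraries and from 176.9 to 187.7 FPKM in heat libraries.

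NAB1 and NAB2, the corepressors that bind EGR proteins, were both listed and both rose. NAB1 was at 0.179, 0.261 and 0.159 FPKM in control and 1.48, 2.07 and 1.72 FPKM in heat, an 8.48-fold rise (adjusted p = 1.29e-10). NAB2 stayed scarce, at 0.228 ± 0.0779 FPKM in control and 0.523 ± 0.113 FPKM in heat, and rose 2.37-fold, but did not pass with median-of-ratios scaling or with the sum of listed counts (adjusted p = 0.447 and 0.231). For the 19 cofactor names searched the table held 7 rows, with HDAC1 and hdac1-b as copies under the same name. The 5 rows other than NAB1 and NAB2 fell, where 41.9% of all tested rows did. HDAC1, a histone deacetylase, fell 2.07-fold from 17.4 ± 0.375 to 8.47 ± 0.783 FPKM. ctbp2a, a CtBP corepressor of the kind that KLF3 recruits, fell 4.20-fold from 2.98 ± 0.207 to 0.682 ± 0.121 FPKM. The others were rcor1, hdac1-b and hdac3, which fell between 2.10-fold and 2.68-fold.

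The 5 PRDM rows, for factors that pair zinc fingers with a histone-methyltransferase-like PR domain, all rose, where 58.1% of all tested rows did. prdm1b is a copy of the gene for Blimp-1, a repressor that directs plasma cell formation and limits inflammation. It stood at 0.545, 0.839 and 0.777 FPKM in control and 5.85, 6.43 and 5.81 FPKM in heat, and it rose 8.43-fold (log2 fold change 3.08 ± 0.20 SE, adjusted p = 2.71e-19), the largest rise among named regulators. A second row named PRDM1 went the same way at a much lower level, from 0.0447 to 0.27 FPKM, with 9 counts over the control libraries.

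prdm12b, whose human counterpart is needed by pain-sensing neurons, was at 0.588, 0.562 and 0.523 FPKM in control and 2.74, 2.92 and 2.87 FPKM in heat. It rose 4.99-fold (adjusted p = 1.00e-10), with little spread within either group. PRDM4 rose 2.63-fold to 1.58 ± 0.317 FPKM, and prdm9, the gene of the methyltransferase that places meiotic crossovers in mammals, rose 3.13-fold to 0.993 FPKM. With median-of-ratios scaling neither of the last pair passed (adjusted p = 0.0868 and 0.0527).

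HIVEP proteins are very large factors that bind sites resembling those of NF-kappaB. hivep1 was at 0.663, 0.776 and 0.676 FPKM in control and 2.43, 2.01 and 2.63 FPKM in heat, and it rose 3.32-fold (adjusted p = 4.90e-15). hivep2a was scarcer, at 0.120 FPKM in control and 0.30 FPKM in heat. Its 2.94-fold rise became 1.80-fold without control replicate 2, and it did not pass with median-of-ratios scaling (adjusted p = 0.134). zbtb8a.1, a BTB-domain factor, rose 4.63-fold from 0.216 ± 0.0330 to 1.02 ± 0.212 FPKM (adjusted p = 4.75e-07).

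Several of these genes are also expressed by immune cells, so the levels of cell type markers were read beside them. Of 12 myeloid names, 3 (mmp9, cd163 and csf3r) were listed, in 6 rows. The 5 tested rows rose, where 58.1% of all tested rows did, and csf3r did not pass with median-of-ratios scaling (adjusted p = 0.502). Their summed level ran from 1.65 to 2.0 FPKM in control libraries and from 10.8 to 13.3 FPKM in heat libraries. The 4 rows for Cd163, a macrophage scavenger receptor, had between 1 and 9 counts each in control. mmp9, a neutrophil and macrophage protease, rose 4.82-fold to 1.79 ± 0.140 FPKM. Of 11 lymphocyte names 2 were listed. IL7R rose 3.06-fold to 2.79 ± 0.0550 FPKM, and ZAP70 was lower but not tested. Of 14 hepatocyte names 4 were listed in 6 rows, with a summed level of 8749 to 9267 FPKM in control and 11031 to 11343 FPKM in heat. Of these hepatocyte rows, 5 rose and 1 fell, where 58.1% of all tested rows rose, and abundant rows moved in opposite ways. rbp4, for the retinol carrier of plasma, fell 2.96-fold from 5950 to 1998 FPKM, while the rows of HP and FGA rose. The APOB row was scarce in control, at 0.0877 ± 0.0491 FPKM and 45 counts over the group, and rose 326-fold to 26.3 ± 0.547 FPKM. No listed row matched the erythrocyte or bile duct names, and of the endothelium and stroma names col1a1b was listed and fell 2.48-fold. The part that cell make-up had in the C2H2 changes was not tested.

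The named regulators outside the KLF family that fell were SALL4, SALL3, ZEB2, wt-t1b and JAZF1. All were under 1 FPKM in control and are named after their values were seen. SALL4, a factor of pluripotent cells and fetal liver, was at 0.234, 0.188 and 0.196 FPKM in control and 0.023, 0.010 and 0.052 FPKM in heat. It fell 7.54-fold, resting on 53 counts in control and 9 in heat. SALL3 fell 2.99-fold from 0.551 FPKM.

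ZEB2, a repressor of epithelial genes, fell 2.51-fold from 0.404 FPKM. wt-t1b, a row described as a Wilms tumour gene, was at 0.485, 0.457 and 0.527 FPKM in control and 0.173, 0.104 and 0 FPKM in heat. Its 8.12-fold fall became 3.99-fold without heat replicate 3, the library with no counts, and 12.5-fold without heat replicate 1. JAZF1, a nuclear receptor cofactor linked to glucose handling, fell 2.31-fold from 0.682 FPKM.

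Some members under 1 FPKM rose. PLAGL2, a growth-related factor, rose 3.70-fold to 0.408 FPKM, and it no longer passed with median-of-ratios scaling (adjusted p = 0.104). The symbols Fbxo41, dnajc21, CD5L and PGBD4 also carry the zf-C2H2 annotation although their names are of other protein types, an F-box protein, a DnaJ cochaperone, a macrophage-secreted protein and a transposase-derived protein. All 4 rose, from control levels between 0.191 and 0.30 FPKM, and all are counted among the named regulators. Of these, Fbxo41 still passed with median-of-ratios scaling, and the others had an adjusted p of 0.252, 0.224 and 0.60.

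The 13 rows with a zinc finger symbol divided into 7 that rose and 6 that fell, near the 58.1% and 41.9% of all tested rows. The split was 2 and 6 with median-of-ratios scaling, where 35.2% of all tested rows rose. With libraries scaled by the sum of listed counts it was 4 and 6, where 46.3% rose. In both scalings 1996 of all 4766 tested rows fell. With whole-library totals, the symbols that rose were znf277, zfpm1, znf142, znf687b, znf598, ZNF341 and znf276. Those that fell were Znf521, znf367, Znf827, Znf462, ZNF652 and ZFP91. With median-of-ratios scaling znf277 and znf142 still rose, and the other 5 rises had an adjusted p between 0.106 and 0.658. Znf521, a regulator of blood progenitors, showed the largest change among them. It was at 2.30, 2.85 and 2.52 FPKM in control and 0.829, 0.475 and 0.532 FPKM in heat, a 4.08-fold fall (log2 fold change -2.03 ± 0.18 SE, adjusted p = 7.84e-15).

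znf367, a gene of the proliferative state, fell 2.67-fold from 2.29 ± 0.257 to 0.853 ± 0.0410 FPKM (adjusted p = 8.86e-09). znf277, the most abundant row with such a symbol, was at 3.21, 2.41 and 3.54 FPKM in control and 7.79, 6.99 and 8.67 FPKM in heat, and it rose 2.56-fold (adjusted p = 2.49e-11). zfpm1, whose product FOG1 is the partner of GATA1, rose 2.17-fold from 0.922 to 2.03 FPKM, and did not pass with median-of-ratios scaling (adjusted p = 0.213). znf598 encodes a ubiquitin ligase that marks collided ribosomes, and it rose 2.42-fold from 0.417 to 0.976 FPKM. Its rise passed neither with median-of-ratios scaling nor with the sum of listed counts (adjusted p = 0.234 and 0.0692).

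klf9 is a standard target of the glucocorticoid receptor, so other targets of that receptor were read beside it. For 12 names, klf9 included, 10 rows under 8 symbols were listed, with per1b counted as a copy of Per1. Of these rows 6 rose, klf9 among them, and 4 fell, where 58.1% of all tested rows rose and 41.9% fell. pck1, for the gluconeogenic enzyme PEPCK, rose 11.6-fold from 9.09 ± 0.446 to 105.2 ± 2.75 FPKM, and FKBP5, a receptor cochaperone, rose 3.79-fold. Both sgk1 rows rose, by 9.33-fold and 3.52-fold, the latter not passing with median-of-ratios scaling (adjusted p = 0.0820). Tsc22d3, for the glucocorticoid-induced leucine zipper protein, fell 6.94-fold from 13.0 ± 0.310 to 1.88 ± 0.195 FPKM, and Tat, for tyrosine aminotransferase, fell 2.11-fold. The Per1 rows split, the more abundant rising 2.48-fold and the other falling 2.98-fold, and per1b fell 2.86-fold. The set thus did not move one way, and its split was near that of all tested rows. No metal-response gene of the kind controlled by the C2H2 factor MTF1 was listed, out of 8 names. Of the 4 heat shock factor names, hsbp1b was listed, a gene for a binding partner of heat shock factors, and it fell 5.61-fold.

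Other transcription factor families in the table gave different splits. Of 55 bZIP rows 45 were higher in heat (81.8%), a family that includes several of the AP-1 genes above. Of 31 bHLH rows 16 were higher, of 12 ZBTB rows 9, and of 19 HMG rows 5. Over all 253 rows with a family other than zf-C2H2, 151 were higher (59.7%), which is close to the 60.5% of C2H2 members with a symbol. No test was made between families, because rows of a family are not independent replicates and all were selected as changed.

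**Figure D5:**
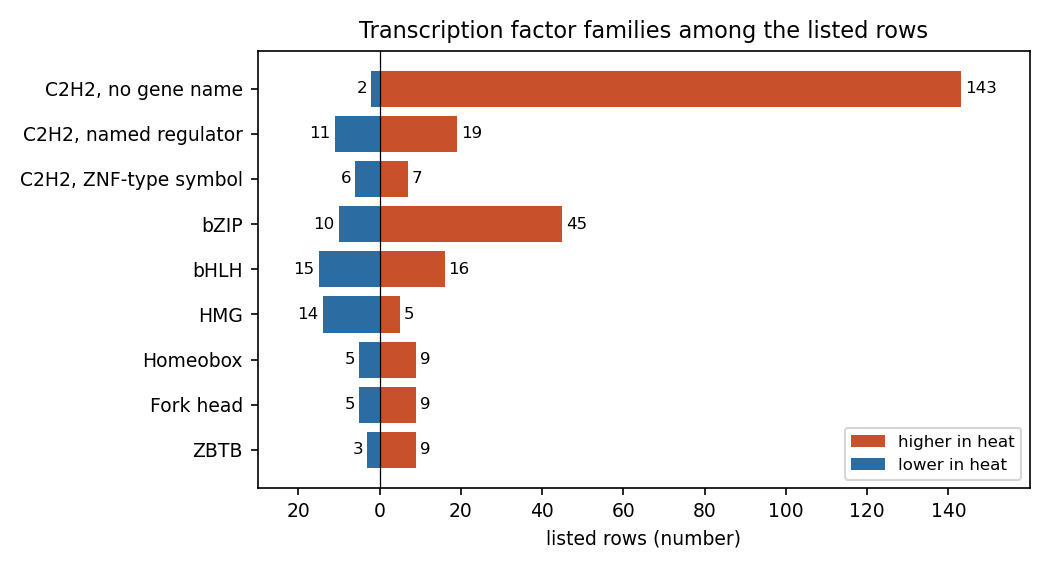
Number of listed rows higher in heat (orange, to the right of 0) and lower in heat (blue, to the left) for the 3 naming classes of C2H2 rows and for 6 other transcription factor families, with the number at the end of each bar. Unnamed C2H2 rows (143 higher, 2 lower) have the longest bar, and named C2H2 regulators (19 and 11) are divided more evenly.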

How the data were processed

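Per the labels' protocols, Trizol-extracted total RNA was made into cDNA libraries. Bowtie2 2.2.8 and StringTie stand in the submitters' processing notes. Genome build, annotation, counting rule and the authors' statistical test were not given in the sources used here. Per the file headers, the deposited table gives a read count and an FPKM value per library, and for each row the authors' p-value, adjusted p and log2 fold change. It is fixed-width text, 8 characters a column, and 822 lines of wrapped text were left out. Only 3 distinct identifiers remain among members, and 18 members carry a symbol found in the RefSeq gene table (assembly USDA_OmykA_1.1).

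Listed counts summed to between 1409460 and 1421082 in control libraries and between 2663575 and 3586127 in heat libraries. Whole-library totals relative to control replicate 1, recovered from count over FPKM in 451 rows with at least 200 counts and 5 FPKM, were 0.999 and 1.02 for control and 1.55, 1.17 and 1.14 for heat. Their absolute size is unknown. Replicates of a group differed by more than sampling noise. The totals scaled limma-voom (limma 3.58.1, R 4.3.3), fitted on group alone to rows with at least 10 counts in 3 libraries and adjusted by Benjamini-Hochberg over 4766 rows. The code was tested on simulated data. Tests that model a count distribution were not run, because the layout kept the columns from being verified as counts. limma-voom took the same columns as counts on the word of their headers, so its results share that limit. Fold changes are from limma-voom and levels from FPKM. Summaries and figures used Python 3.11.15, pandas 2.3.3, numpy 2.4.6, scipy 1.17.1 and matplotlib 3.10.9.

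Named were all KLF, EGR, PRDM, ZBTB and similar family members and up to 12 other regulators with at least 1 FPKM in the higher group, the 5 largest rises and falls of other entries at that level (only 3 fell), the 5 highest control levels, and symbols whose copies diverge. Other genes were named after their values were seen. Members, lists and the rule were chosen with earlier results of these data known. A fold against a group with no counts uses a floor of 3 counts over the group. Alternatives were other scalings, count filters, pseudocounts, a replicate block, 1 row per symbol and leaving out each library.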

Additional observations from a re-analysis of the deposited data

How the results depend on the processing

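The direction of every tested member was the same under every alternative run, and the 18 falls passed in all of them except the filter below and the fit with 1 row per symbol, which test fewer rows. This carries little information. The rows had been selected as changed at least 2-fold, and the other scalings could hardly turn such rises and enlarged the falls. The number of rises (155) and their size depend on scaling. With median-of-ratios scaling 62 members rose, 57 reached a 2-fold change in either direction, and the median log2 fold change was 0.64, with 10 named regulators and 52 other entries rising. With libraries scaled by the sum of listed counts the values were 98, 73 and 0.83, with 82 of the entries other than named regulators rising. Those scalings moved the median of all tested rows by -0.91 and -0.73 and left 1678 and 2207 of all tested rows rising, where 1996 fell in both. Both assume that the listed rows as a whole did not change. Scaling by whole-library totals assumes instead that those totals are comparable between groups, which was not tested. On the FPKM scale the listed rows summed to between 50661.7 and 51164.3 in control libraries and between 77949.3 and 78443.9 in heat libraries. dnajc21, PGBD4 and CD5L no longer passed with the sum of listed counts (adjusted p = 0.108, 0.279 and 0.111), and znf598, ZNF341 and znf276 did not either (adjusted p = 0.0692, 0.0527 and 0.340).

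Asking for 10 counts in all 6 libraries left 101 members, with 88 rises, 99 changed at least 2-fold and a median of 1.32. In that fit 6 named regulators fell and 75 other entries rose, where 58.0% of all 3584 rows it tested rose. limma on log2(FPKM + 0.1) gave a median of 1.29, and on log2(FPKM + 1) a median of 0.54 with 23 members changed at least 2-fold, since the pseudocount shrinks low levels. With no count filter 169 members rose and 19 fell, where 57.1% of all 5045 listed rows rose. Leaving out 1 library in turn gave medians from 1.50 to 1.56 and from 153 to 155 rises. In those fits the folds of 21 members moved by over 1.5 times, 19 of them unnamed, and 3 unnamed members lost the call.

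Control and heat libraries share replicate numbers. Deviations of same-numbered libraries correlated at 0.0596, 0.0365 and -0.0416, so the numbers were not taken to pair the samples. A replicate block gave 155 rises, 18 falls and a median of 1.49.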

Other observations

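A further 45 listed rows have a zinc finger name or description but another family annotation or none. Of these, 37 were higher and 8 lower in heat, where 57.1% of all listed rows were higher. With median-of-ratios scaling 16 of the 44 tested rows rose and 7 fell. Of all 4766 tested rows, 1678 rose with that scaling (35.2%), a share near that of these rows. Falls made up a smaller share of these rows, 7 of 44, than of all tested rows, 1996 of 4766 (41.9%). The rows given below were named after their values were seen. ZNF259, whose product ZPR1 binds translation elongation factor 1 alpha, was the most abundant of those named here in heat. It was at 6.11, 6.16 and 6.18 FPKM in control and 49.9, 47.6 and 43.3 FPKM in heat, and it rose 7.61-fold (limma-voom, adjusted p = 1.08e-29). The AN1-type zinc finger genes zfand2a and zfand5b, which are linked to proteasome function, rose 4.66-fold and 3.17-fold. zfand2a was at 22.2 FPKM in heat replicate 1 and at 14.2 and 13.1 FPKM in the other heat libraries, all above the control libraries.

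Among the 12 rows annotated ZBTB, both ZBTB21 rows rose, by 9.93-fold and 4.90-fold, and ended at 1.74 ± 0.117 and 1.89 ± 0.352 FPKM. BCL6, a repressor of inflammatory genes, fell 2.67-fold from 5.02 ± 0.471 to 1.88 ± 0.136 FPKM, while its paralog bcl6b rose 2.71-fold from 1.44 ± 0.214 to 3.95 ± 0.306 FPKM. ZNF704, with no family annotation, fell 2.84-fold from 3.89 ± 0.10 to 1.38 ± 0.0804 FPKM.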
